A study of Mus musculus with 24 samples.

Results

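Immediate early genes are the genes that cells switch on first after a stimulus, before any new protein has to be made. The 10 described here are Fos, Fosb, Jun, Junb, Atf3, Egr1, Klf4, Nr4a1, Dusp1 and Ier2, and they were chosen by symbol, as every probe set that the platform's gene table gives to these symbols. Each symbol had 1 probe set of its own, so the members are 10 of 22180 genes with a probe set of their own, on an array of 34390 probe sets. Of these, 9 lay above the filter on low signal (mean log2 signal of 7.42) and were tested among 15526 genes. Ier2 lay below it, with a mean log2 signal of 6.77.

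The tissue was epididymal white fat (eWAT), which lies along the epididymis of male mice, and its RNA was measured on 24 Affymetrix arrays with 1 mouse per array. MUT mice were Syt10-Cre/Cre x Bmal1-flox/-, so that Cre, driven by the promoter of Syt10, removes the remaining Bmal1 copy in cells that use this promoter. By the labels, these mice lack a functional clock in the suprachiasmatic nucleus (SCN), which is the central pacemaker in the hypothalamus. CON mice were Syt10-Cre/Cre x Bmal1-+/-. Both genotypes therefore carried the Cre allele on both chromosomes and 1 Bmal1 null allele, and no group in the series has 2 intact Bmal1 copies. All mice were kept for 2 weeks in a light-dark cycle and then moved to constant darkness. On day 2 of darkness eWAT was collected at CT1, 7, 13 and 19 (CT, circadian time in hours), with CT1 at 27 h after lights off, from 3 mice per genotype and time. The study set out to follow daily rhythms of the transcriptome without a working SCN clock.

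Every value is a log2 signal, so a difference of 1 is a doubling. Array medians lay between 7.80 and 7.94. The titles name eWAT whereas the source field gives mediobasal hypothalamus. Among all gene signals, 10 adipocyte markers had a median percentile of 99.6, against 36.3 for 12 markers of hypothalamus and neurons. Arntl, the symbol of Bmal1, averaged 8.49, 8.19, 9.52 and 9.15 in MUT at CT1, 7, 13 and 19, against 8.95, 8.07, 8.36 and 9.54 in CON, and its signal in fat was not lost in MUT. The 3 arrays with the narrowest spread of signal over genes were CON CT13 replicate 1 and CON CT7 replicates 2 and 3 (SD of 0.999, 1.01 and 1.02, against up to 1.12), and calls below that ended without them are given with that value.

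Fos, Fosb, Jun and Junb encode subunits of the dimeric transcription factor AP-1, and Atf3 encodes a related leucine zipper protein that also pairs with JUN. Egr1 and Klf4 encode zinc finger transcription factors, Nr4a1 an orphan nuclear receptor, Dusp1 a phosphatase that inactivates MAP kinases, and Ier2 a nuclear protein. Growth factors, cytokines, adrenergic signals acting through cAMP, and the handling of tissue all raise such genes within minutes, through serum response factor and its kinase-activated partners or through CREB. Their transcripts are short-lived, so a level records recent signalling in the cells of the sample.

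Jun and Klf4 were the 2 members with a call in any comparison. Jun had a daily rhythm in CON, and Klf4 was lower in MUT than in CON at CT7. With the Benjamini-Hochberg adjusted p of limma under 0.05 as the threshold, 1 of 9 members passed for a 24-h rhythm in CON, where 17.1% of all genes passed. No member passed for a rhythm in MUT, where 0.348% of all genes did. None of the 9 had an unadjusted p under 0.05 there, against 2266 of 15526 genes. Fewer cells of a type and less RNA per cell cannot be told apart in whole tissue.

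**Figure D1:**
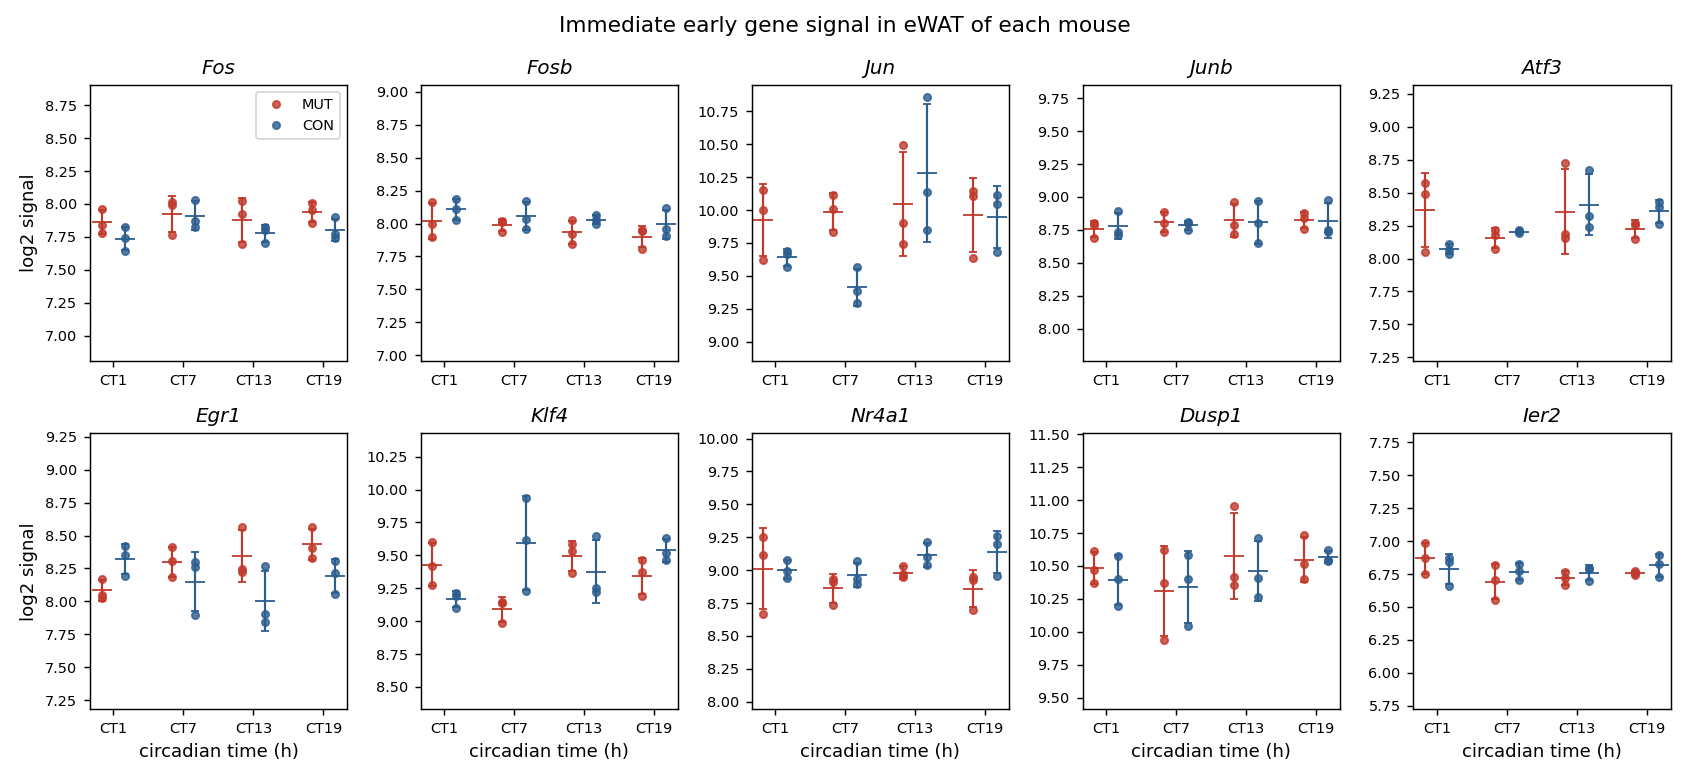
Log2 signal (y axis, each panel spanning the same range around its own centre) of the 10 immediate early genes in eWAT at CT1, 7, 13 and 19 (x axis), with MUT in red and CON in blue. Points are mice, long ticks are means and bars are SD over 3 mice. Jun in CON lay at 9.29 to 9.57 at CT7 and at 9.84 to 10.86 at CT13, and Klf4 at CT7 lay at 8.98 to 9.15 in MUT and 9.23 to 9.94 in CON.

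The upstream sequences of the members show which of these genes carry short motifs for factors of this kind. RefSeq's promoter table (GRCm38.p6) held 8 of the 10 genes, and Egr1 and Ier2 are named only. The 250 bases before the annotated start are printed for the 2 members with a call, for Fos as the gene that names the family, and for Dusp1, the member with the complete cAMP response element (CRE). They lie at chr4:95052223-95052472 on the minus strand for Jun, chr4:55532476-55532725 on the minus strand for Klf4, chr12:85473640-85473889 on the plus strand for Fos and chr17:26508473-26508722 on the minus strand for Dusp1. Capitals mark matches to the short CRE TGACG or its complement CGTCA, the full CRE TGACGTCA, which contains both short forms, the E-box CACGTG, the TATA box TATAAA and, in Jun, TGACATCA.
Jun: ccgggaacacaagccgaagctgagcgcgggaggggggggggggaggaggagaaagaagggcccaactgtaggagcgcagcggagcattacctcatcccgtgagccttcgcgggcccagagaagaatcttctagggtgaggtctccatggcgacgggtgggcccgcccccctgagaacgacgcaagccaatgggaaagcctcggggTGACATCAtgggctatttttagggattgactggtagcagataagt
Klf4: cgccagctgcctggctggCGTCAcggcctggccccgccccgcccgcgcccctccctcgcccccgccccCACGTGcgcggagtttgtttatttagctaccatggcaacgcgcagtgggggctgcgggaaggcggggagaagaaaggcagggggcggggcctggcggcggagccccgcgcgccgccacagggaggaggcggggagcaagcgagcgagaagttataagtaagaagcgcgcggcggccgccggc
Fos: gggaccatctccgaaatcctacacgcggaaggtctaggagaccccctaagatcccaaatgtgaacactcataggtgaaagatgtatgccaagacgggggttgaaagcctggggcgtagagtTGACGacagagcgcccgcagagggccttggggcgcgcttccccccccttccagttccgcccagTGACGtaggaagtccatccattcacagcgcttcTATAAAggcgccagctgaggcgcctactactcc
Dusp1: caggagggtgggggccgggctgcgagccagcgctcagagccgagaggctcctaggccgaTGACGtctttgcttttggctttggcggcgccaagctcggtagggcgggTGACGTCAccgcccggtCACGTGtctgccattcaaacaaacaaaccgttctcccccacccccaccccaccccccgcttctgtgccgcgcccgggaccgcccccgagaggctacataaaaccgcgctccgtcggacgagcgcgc

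A short CRE stood in 7 of the 8 member promoters, against 17.8% of 32851 promoters of the same length searched on both strands. The exception was Jun. Its window held TGACATCA from -45 to -38, counted back from the start, a variant added to the search after the sequence was seen and held by 2.93% of all promoters. The full CRE stood in Dusp1 alone (-143 to -136), against 1.55% of all promoters. The E-box, the motif that CLOCK and BMAL1 bind, stood in Klf4 (-182 to -177) and Dusp1 (-126 to -121), against 6.02% of all promoters. TATAAA stood in Fos (-33 to -28), against 12.4%, and the GC box GGGCGG in 7 of 8, against 32.7%. No match was found in these windows for the AP-1 site TGANTCA (6.75% of all promoters) or the CArG box that serum response factor binds (1.47%). The shares over all promoters were not matched for base composition, so they do not show that a motif is enriched in the members. A match is a string of letters and no measurement of binding.

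Among the AP-1 genes, Jun was the member with a call. In MUT its log2 signal was 10.15, 10.004 and 9.62 at CT1, then 10.12, 10.01 and 9.84 at CT7, then 9.74, 10.49 and 9.90 at CT13, and 10.15, 10.10 and 9.64 at CT19. In CON it was 9.67, 9.57 and 9.69 at CT1, then 9.57, 9.38 and 9.29 at CT7, then 10.14, 9.84 and 10.86 at CT13, and 10.04, 9.68 and 10.12 at CT19. The MUT mice covered much the same range at all 4 times, while every CON mouse was lower at CT7 than any CON mouse at CT13 or CT19. The CON means ordered as CT7 (9.41), CT1 (9.64), CT19 (9.95) and CT13 (10.28), and the ranges of neighbours in this order met to 2 decimals or overlapped.

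The fitted 24-h rhythm of Jun, as peak-to-trough on the log2 scale, was 0.12 ± 0.21 (SE) in MUT (limma adjusted p = 0.936). In CON it was 0.83 ± 0.21, or 1.78-fold, with the peak at CT15.6 ± 0.94 h (adjusted p = 0.0206). The test of the difference between these rhythms did not pass (0.76 ± 0.29, adjusted p = 0.321), so the rhythm is not shown to differ between genotypes. That test called 0 of 9 members against 1.44% of all genes. Its unadjusted p was under 0.05 for 1 member, against 2430 of 15526 genes. At CT7 all 3 MUT mice lay above all 3 CON mice (0.57 ± 0.21 for MUT minus CON, 1.49-fold), which also did not pass (adjusted p = 0.113). This difference passed with array weights (0.58, adjusted p = 0.0224) and in the 6 arrays of CT7 alone (adjusted p = 0.00532), and was 0.30 with the mesothelium covariate described next (adjusted p = 0.445) and 0.42 without the 3 arrays of narrowest spread (adjusted p = 0.628). A test for any difference between the 4 times called Jun in CON as well (0.87 between the highest and lowest mean, adjusted p = 0.0246, 1 of 9 members against 13.2% of all genes). In MUT it called 0 of 9 members against 0.425% of all genes, with 2 members at an unadjusted p under 0.05, against 2193 of 15526 genes.

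Markers of mesothelium and macrophages were lowest at CT7 in CON, as Jun was. So were 7 fibroblast and preadipocyte markers, with a mean of 9.97 at CT7 and 4 of 7 called for a rhythm in CON. The means of smooth muscle and pericyte markers (9.69) and of mast cell markers (7.32) were lowest at CT7 in CON too. Among these, 1 of 7 and 0 of 3 tested were called for a rhythm in CON, against 17.1% of all genes. The mean of 8 endothelium markers ran otherwise in CON, from 10.50 at CT1 to 10.25 at CT13, with 4 of 8 called. The mean log2 signal of 8 mesothelium markers in MUT ran from 8.83 to 9.04 at CT1, 8.38 to 9.11 at CT7, 8.81 to 9.83 at CT13, and 9.14 to 9.61 at CT19. In CON it ran from 8.46 to 8.89, 8.25 to 8.35, 8.85 to 9.37 and 9.06 to 9.35 at the same times. A rhythm was called for 7 of these 8 markers in CON, against 17.1% of all genes. In MUT 0 of 8 were called, with 7 at an unadjusted p under 0.05 in limma, against 2266 of 15526 genes. Their median fitted rhythm was 0.72 in MUT and 1.09 in CON, and 0 of 8 were called for a difference of rhythm. In MUT the marker mean averaged 8.74 at CT7 and 9.45 at CT19, where Jun averaged 9.99 and 9.96. The mean of 10 macrophage markers averaged 9.08 at CT7 and 9.45 at CT13 in MUT, against 9.03 and 9.33 in CON. A rhythm was called for 3 of 10 in CON, against 17.1% of all genes. In MUT 0 of 10 were called, with 6 at an unadjusted p under 0.05 in limma, against 2266 of 15526 genes. The 2 arrays with the highest Jun, CON CT13 replicate 3 and MUT CT13 replicate 2, also had the highest mesothelium mean of their groups, 9.37 and 9.83. Over 24 arrays, as deviations from the group mean, Jun correlated with the mesothelium mean at r = 0.63 and with the macrophage mean at r = 0.55. With the mesothelium mean as a covariate the CON rhythm of Jun was 0.45 (limma adjusted p = 0.161), and with the macrophage mean it was 0.45 (adjusted p = 0.278). Both fits were added after seeing the data, and the part of these cells in the result was not tested beyond them.

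The Jun rhythm call in CON held in all 24 fits that left out 1 array, with sizes from 0.64 to 1.01 and adjusted p from 0.00628 to 0.0473. It ended without the 3 arrays of narrowest spread (0.81, adjusted p = 0.126). The call for any time difference ended without CON CT7 replicate 2 (adjusted p = 0.0581), CON CT7 replicate 3 (adjusted p = 0.0716) or CON CT13 replicate 3, where the difference was 0.58 (adjusted p = 0.0716). It also ended without the 3 arrays of narrowest spread (adjusted p = 0.215), with either marker covariate (0.44 and 0.48, adjusted p = 0.164 and 0.303) and with trended and robust variance (adjusted p = 0.0571).

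Atf3 had the next largest fitted rhythm in CON, and it did not pass. Its log2 signal in MUT was 8.57, 8.05 and 8.49 at CT1 and 8.19, 8.73 and 8.15 at CT13. In CON it was 8.11, 8.04 and 8.06 at CT1 and 8.32, 8.24 and 8.67 at CT13. The fitted rhythm was 0.07 ± 0.13 in MUT (limma adjusted p = 0.948) and 0.37 ± 0.13 in CON, with a fitted peak at CT14.7 (adjusted p = 0.107). It was called in CON when MUT CT13 replicate 2 was left out (adjusted p = 0.0433) and in the 12 CON arrays alone (adjusted p = 0.0356). At CT1 Atf3 was 0.30 ± 0.13 apart with overlapping ranges (MUT minus CON, adjusted p = 0.366), the member with the smallest p at that time.

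Fos, Fosb and Junb varied little, and the signals of Fos and Fosb were low. Their mean signals lay at percentiles 41.6 and 46.1 among genes, against 68.3 for Junb. The markers of hypothalamus and neurons had a median percentile of 36.3. Whether a low signal narrowed the range of Fos and Fosb was not tested, so their small variation may not reflect steady RNA levels. Over all 24 mice Fos ran from 7.65 to 8.03 with a median of 7.83, Fosb from 7.81 to 8.19 with a median of 8.005, and Junb from 8.65 to 8.97 with a median of 8.79. Their fitted rhythms were 0.02, 0.13 and 0.07 in MUT and 0.11, 0.10 and 0.04 in CON, each with an SE of 0.08 or 0.09 and none called. In the mean of the 4 times, Fos was 0.09 ± 0.04 apart in MUT minus CON (adjusted p = 0.112), positive at all 4 times, and Fosb was -0.09 ± 0.04 (adjusted p = 0.102), negative at all 4 times. The difference in Fos passed after quantile normalization (0.14, adjusted p = 0.0347), with arrays shifted to the same median (0.14, adjusted p = 0.0198) and without MUT CT13 replicate 3 (0.12, adjusted p = 0.0462). Junb differed by 0.005 ± 0.042 (adjusted p = 0.940).

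Klf4 was the member called between the genotypes. At CT7 its log2 signal was 9.14, 9.15 and 8.98 in MUT, against 9.94, 9.23 and 9.62 in CON, so all 3 MUT mice lay below all 3 CON mice. The difference was -0.51 ± 0.13 (MUT minus CON, 1.42-fold lower, limma adjusted p = 0.0316), the call of 1 of 9 members at CT7, where 4.05% of all genes were called. At CT1 the order was turned, with 9.60, 9.27 and 9.42 in MUT against 9.22, 9.10 and 9.19 in CON and no overlap (0.26 ± 0.13, adjusted p = 0.466). At CT13 the mice had 9.37, 9.53 and 9.58 in MUT and 9.22, 9.25 and 9.65 in CON, and at CT19 they had 9.46, 9.38 and 9.19 in MUT and 9.52, 9.63 and 9.46 in CON. The ranges overlapped at both of these times.

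The MUT means of Klf4 were lowest at CT7 (9.09) and highest at CT13 (9.49), whereas the CON means were lowest at CT1 (9.17) and highest at CT7 (9.60). A test of whether the genotype difference itself varied over the 4 times, added after the levels were seen, gave an adjusted p of 0.0838 for Klf4 (0 of 9 members called, against 1.36% of all genes), and the difference at CT7 minus that at CT1 was -0.77 ± 0.19 (adjusted p = 0.233). The fitted 24-h rhythms were 0.26 ± 0.13 in MUT and 0.21 ± 0.13 in CON, and neither passed. The test for any difference between the 4 times did not pass for Klf4 in CON (0.42, adjusted p = 0.0900), but it was called with quantile normalization, with array weights, without CON CT7 replicate 2 (0.61, adjusted p = 0.0130), without CON CT13 replicate 3 (adjusted p = 0.0414) and without the 3 arrays of narrowest spread (0.77, adjusted p = 0.0160). The CT7 call ended without CON CT7 replicate 1, which moved the difference to -0.34 (adjusted p = 0.124), without CON CT7 replicate 3 (adjusted p = 0.105) and without MUT CT7 replicate 1, 2 or 3 (adjusted p = 0.0516, 0.0776 and 0.133). It also ended with arrays shifted to the same median (-0.46, adjusted p = 0.0563) and in the 6 arrays of CT7 alone (adjusted p = 0.0506), and without the 3 arrays of narrowest spread the difference was -0.85 (adjusted p = 0.0147).

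**Figure D2:**
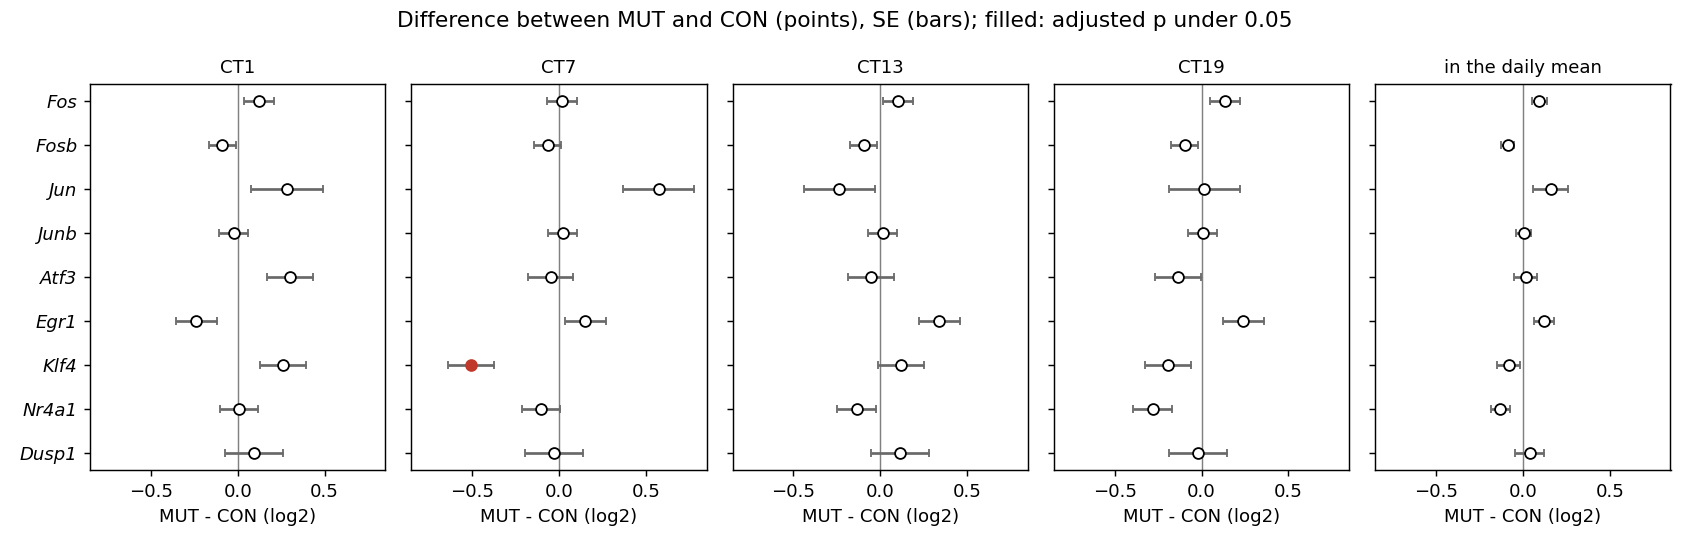
MUT minus CON difference in log2 signal (x axis) of the 9 tested immediate early genes (rows) at CT1, CT7, CT13, CT19 and in the daily mean, from left to right. Points are limma estimates, bars are SE, and the filled point has an adjusted p under 0.05. The filled point is Klf4 at CT7 (-0.51), and Jun at CT7 (0.57) lies farther from 0 with a larger error.

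Egr1 in MUT lay below its level in CON at CT1 and above it at the other times, and no single difference passed. At CT1 the mice had 8.05, 8.17 and 8.03 in MUT against 8.20, 8.42 and 8.35 in CON. At CT13 they had 8.57, 8.24 and 8.22 in MUT against 8.27, 7.85 and 7.90 in CON. At CT19 they had 8.33, 8.41 and 8.56 in MUT against 8.31, 8.22 and 8.06 in CON. The ranges did not overlap at CT1 and CT19, in opposite directions. The differences (MUT minus CON) at CT1, 7, 13 and 19 were -0.24, 0.15, 0.34 and 0.24, each with an SE of 0.12, with limma adjusted p of 0.445, 0.488, 0.151 and 0.225.

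The fitted Egr1 rhythm was 0.29 ± 0.12 with a fitted peak at CT14.8 in MUT, and 0.32 ± 0.12 with a fitted peak at CT0.484 in CON. Neither was called (limma adjusted p of 0.375 and 0.131), so a difference in timing is not shown. The vector difference of the fitted rhythms was 0.59 ± 0.17 (adjusted p = 0.143), the smallest p of the 9 members in that test. It was called with array weights (0.67, adjusted p = 0.0340) and without the 3 arrays of narrowest spread (0.73, adjusted p = 0.0395), where the CON rhythm of Egr1 also passed (0.54, adjusted p = 0.0198).

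Nr4a1 lay below CON in MUT at the 2 later times. At CT13 the mice had 8.97, 9.03 and 8.94 in MUT against 9.10, 9.04 and 9.21 in CON, and at CT19 they had 8.70, 8.93 and 8.95 in MUT against 8.95, 9.26 and 9.20 in CON. Neither pair of ranges overlapped, by a narrow margin in both cases. The differences were -0.14 ± 0.11 (limma adjusted p = 0.484) and -0.28 ± 0.11 (adjusted p = 0.140), and the daily mean differed by -0.13 ± 0.06 (adjusted p = 0.0953). The daily mean passed with array weights (-0.16, adjusted p = 0.0343) and without MUT CT1 replicate 3 (-0.16, adjusted p = 0.0364).

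Dusp1 and Ier2 showed no called difference. Dusp1 ran from 9.94 to 10.95 over the 24 mice with a median of 10.44, the ranges of the genotypes overlapped at every time, and its fitted rhythms were 0.25 ± 0.17 in MUT and 0.24 ± 0.17 in CON, with fitted peaks at CT17.6 and CT17.9. Ier2 had group means from 6.69 to 6.87 in MUT and from 6.76 to 6.82 in CON. In a fit without the filter on low signal its differences between genotypes ran from -0.08 to 0.08 and its fitted rhythms were 0.16 in MUT and 0.06 in CON, with 0.504 as the lowest limma adjusted p.

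Over all 9 tested members, calls between the genotypes were 0 or 1 per comparison. With 9 genes, such counts do not set the members apart from all genes. In the daily mean 0 of 9 were called in limma, against 21.7% of all genes. An unadjusted p under 0.05 was met by 4 of 9, against 5898 of 15526 genes. The median difference was 0.02 against 0.003 over all genes. At CT1, CT13 and CT19 the calls were 0 of 9 each, against 0.0451%, 0.322% and 2.74% of all genes. An unadjusted p under 0.05 was met by 1 member at each of these times, against 1791, 3073 and 3537 of 15526 genes. The 3 mice of MUT and the 3 of CON did not overlap for 2, 2, 1 and 2 of 9 members at CT1, 7, 13 and 19, against 18.9%, 25.6%, 22.2% and 27.3% of all genes. The median fitted rhythm of the members was 0.12 in MUT and 0.21 in CON, against 0.13 and 0.18 over all genes.

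Among the wider family of early response genes, Fosl2 had a rhythm in CON that was called as different from that in MUT. Of 40 listed relatives 37 were tested, and 9 had a rhythm in CON (17.1% of all genes did). In MUT 0 of 37 did, with 9 at an unadjusted p under 0.05 in limma, against 2266 of 15526 genes. The 9 were Fosl2, Myc, Ier3, Dusp4, Dusp6, Zfp36, Jund, Zfp36l1 and Rhob, and the median fitted size over the 37 was 0.17 in MUT and 0.22 in CON. Without the 3 arrays of narrowest spread 3 of 37 were called in CON, namely Fosl2, Myc and Zfp36 (6.51% of all genes). With the mesothelium covariate 3 of 37 were called (9.68% of all genes) and with the macrophage covariate 2 of 37 (6.80%), with Fosl2 and Myc in both. The rhythm calls of Dusp4, Zfp36l1 and Rhob, with adjusted p of 0.0436, 0.0484 and 0.0381, ended in 13, 14 and 8 of the 24 fits that left out 1 array.

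Fosl2 encodes FRA-2, a FOS family subunit of AP-1, and it had the largest of these rhythms. Its log2 signal in MUT was 10.29, 10.24 and 10.12 at CT1, then 10.09, 10.22 and 10.22 at CT7, then 10.38, 10.56 and 10.46 at CT13, and 10.10, 10.17 and 10.23 at CT19. In CON it was 10.06, 9.97 and 9.91 at CT1, then 9.51, 9.60 and 9.41 at CT7, then 10.25, 10.29 and 10.34 at CT13, and 10.46, 10.37 and 10.38 at CT19. All 3 MUT mice lay above all 3 CON mice at CT1, CT7 and CT13 and below them at CT19. The CON rhythm was 0.95 ± 0.07 with its peak at CT17.7 (limma adjusted p = 4.82e-08), the difference at CT7 was 0.67 ± 0.07 (adjusted p = 1.06e-05) and the rhythms of the genotypes differed by 0.91 ± 0.10 (adjusted p = 8.67e-05). These calls held in every alternative fitted, those with marker covariates included. Fosl2 was the single relative called for a difference of rhythm (1 of 37, against 1.44% of all genes) and at CT7 (1 of 37, against 4.05%).

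Jund, the constitutive JUN family gene, had a CON rhythm of 0.40 ± 0.09 with its peak at CT16.8 (limma adjusted p = 0.0112), and its means differed between times by 0.43 (adjusted p = 0.0123). Without the 3 arrays of narrowest spread the rhythm was 0.36 (adjusted p = 0.160), and it was 0.18 with the mesothelium covariate (adjusted p = 0.372). The mean of Jund's probe sets gave 0.22 for the rhythm (adjusted p = 0.106) and for the time difference (adjusted p = 0.147), whose call also ended with either marker covariate, without the 3 arrays of narrowest spread (adjusted p = 0.269) and without CON CT7 replicate 3 (adjusted p = 0.0617). The CON peaks of Jun, Fosl2, Jund and Ier3 were fitted within CT15.6 to CT17.7. Ier3, an early gene that modulates survival signalling, had a CON rhythm of 0.63 ± 0.12 (adjusted p = 0.00476) and was lower in MUT at CT19 (-0.61 ± 0.12, adjusted p = 0.0140), with 8.70, 8.99 and 8.75 in MUT against 9.59, 9.39 and 9.28 in CON. Its rhythm was 0.31 with the mesothelium covariate (adjusted p = 0.283), 0.47 with the macrophage covariate (adjusted p = 0.139) and 0.65 without the 3 arrays of narrowest spread (adjusted p = 0.0745).

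Myc and Zfp36 peaked at other times of day. Myc, a growth regulator, had a CON rhythm of 0.64 ± 0.12 with its peak at CT3.29 (limma adjusted p = 0.00359). At CT19 Myc was 9.48, 9.45 and 9.59 in MUT against 8.97, 9.01 and 9.12 in CON (0.47 ± 0.12, adjusted p = 0.0365), and at CT1 it was 8.91, 9.27 and 9.31 in MUT against 9.75, 9.47 and 9.70 in CON. Zfp36, whose protein promotes decay of early transcripts, had a CON rhythm of 0.53 ± 0.11 with its peak at CT6.73 (adjusted p = 0.00795). At CT19, 2 of 37 relatives were called, against 2.74% of all genes. The CT19 call of Ier3 ended without CON replicate 2 or MUT replicate 1 of that time (adjusted p = 0.0764 and 0.0773). That of Myc ended without CON replicate 1 or 2 or any of the 3 MUT mice of that time (adjusted p from 0.0684 to 0.200), and with quantile normalization (adjusted p = 0.0576). The rhythm call of Zfp36 ended without CON CT19 replicate 2 (adjusted p = 0.0513) and with the mesothelium or macrophage covariate (adjusted p = 0.0806 and 0.0750).

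**Figure D3:**
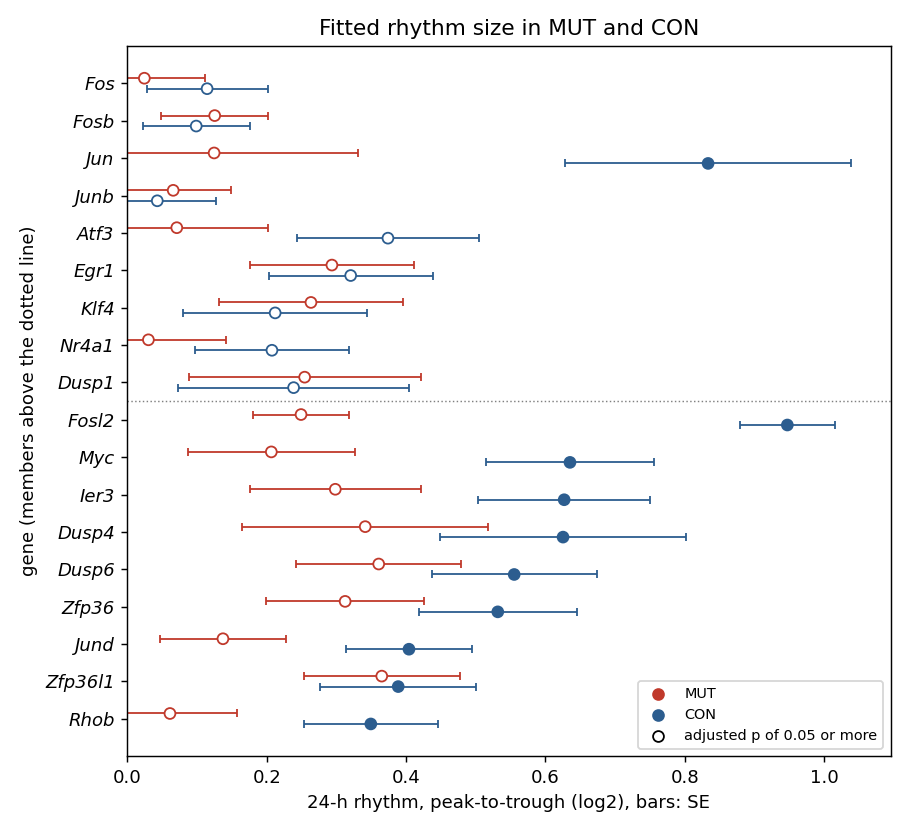
Fitted 24-h rhythm, peak-to-trough on the log2 scale (x axis), of the 9 tested immediate early genes (above the dotted line) and of the 9 relatives with a rhythm in CON (below it). MUT is red and drawn above CON, which is blue, bars are SE, and open points have an adjusted p of 0.05 or more. Every MUT point is open, and Jun (0.83) is the filled CON point among the members.

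In the daily mean 4 of 37 relatives were called, against 21.7% of all genes. Fosl2 (0.21 ± 0.03, limma adjusted p = 0.00121) and Btg2, an antiproliferative gene (0.16 ± 0.06, adjusted p = 0.0468), were higher in MUT. Dusp2, a phosphatase of the Dusp1 family (-0.16 ± 0.05, adjusted p = 0.0233), and Nr4a3, a receptor of the Nr4a1 family (-0.15 ± 0.05, adjusted p = 0.0309), were lower in MUT. The call of Btg2 ended in 15 of the 24 fits that left out 1 array, with adjusted p up to 0.0913. It also ended with quantile normalization (0.11, adjusted p = 0.199), without the level filter (adjusted p = 0.0532), without the 3 arrays of narrowest spread (adjusted p = 0.208) and with the mesothelium covariate (0.076, adjusted p = 0.414) or the macrophage covariate (adjusted p = 0.0745). That of Nr4a3 ended without CON CT7 replicate 3, MUT CT1 replicate 2, MUT CT7 replicate 2 or MUT CT19 replicate 1 (adjusted p from 0.0511 to 0.0605), and that of Dusp2 without CON CT13 replicate 1 (adjusted p = 0.0508). Both calls ended with arrays shifted to the same median (adjusted p = 0.107 for Nr4a3 and 0.0640 for Dusp2), without the 3 arrays of narrowest spread (adjusted p = 0.166 and 0.0684) and with the mesothelium covariate (adjusted p = 0.0605 and 0.166). That of Nr4a3 also ended with quantile normalization (adjusted p = 0.110).

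Of 27 kinases and transcription factors that act upstream of early genes, 22 were tested. A rhythm in CON was called for 7 of them (17.1% of all genes), and in MUT for 0. In MUT 5 had an unadjusted p under 0.05 in limma, against 2266 of 15526 genes. Rps6ka3, a ribosomal S6 kinase, had the largest named CON rhythm, 0.65 ± 0.10 with its peak at CT21.7 (adjusted p = 0.000502), ahead of Mapk14, the p38 alpha kinase (0.48 ± 0.08, CT16.4, adjusted p = 0.00107) and Braf, a serine/threonine kinase (0.32 ± 0.07, CT2.89, adjusted p = 0.00762). In the daily mean 6 of 22 were called, all higher in MUT (21.7% of all genes were called), among them Rps6ka3 (0.28 ± 0.05), Mef2a (0.15 ± 0.03) and Mapk9, the JNK2 kinase (0.13 ± 0.03). Without the 3 arrays of narrowest spread Mef2a and Mapk9 no longer passed (adjusted p = 0.104 and 0.0914), nor did the CON rhythm of Braf (adjusted p = 0.0548), and 4 of 22 upstream genes had a rhythm in CON (6.51% of all genes) and 1 of 22 was called in the daily mean (1.91%). Mef2a also ended with the mesothelium covariate (adjusted p = 0.0682) and Mapk9 with quantile normalization (adjusted p = 0.0699). Rhythms in CON were called for 3 of 22 with either marker covariate. Over all 15526 genes they numbered 1503 with the mesothelium covariate and 1055 with the macrophage covariate. With arrays shifted to the same median, 10 of 22 were called in the daily mean (28.0% of all genes).

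At CT7 Mapk14 was 9.70, 9.75 and 9.74 in MUT against 9.48, 9.41 and 9.23 in CON, and all 3 MUT mice lay above the CON mice (0.36 ± 0.08, limma adjusted p = 0.0126). Rps6ka3 was 10.65, 10.67 and 10.42 in MUT against 10.36, 10.02 and 10.21 in CON at CT7 (0.38 ± 0.10, adjusted p = 0.0284), which made 2 of 22 called there, against 4.05% of all genes. Without the 3 arrays of narrowest spread, 2 of them from CON at CT7, the differences were 0.25 for Mapk14 (adjusted p = 0.293) and 0.22 for Rps6ka3 (adjusted p = 0.512). The Mapk14 call also ended without CON CT7 replicate 3 (adjusted p = 0.0810) and with the mesothelium covariate (adjusted p = 0.0544), and the Rps6ka3 call without CON CT7 replicate 2 or 3 or MUT CT7 replicate 1 or 2 (adjusted p from 0.0747 to 0.150). Braf at CT19 was higher in MUT (0.26 ± 0.07, adjusted p = 0.0389), the call of 1 of 22 against 2.74% of all genes, and it ended without CON CT19 replicate 1 or 2 or MUT CT19 replicate 1 or 2 (adjusted p from 0.0932 to 0.200). The Braf call also ended with quantile normalization, with the mesothelium covariate, without the level filter and in the 6 arrays of CT19 alone (adjusted p from 0.0506 to 0.0928). Mapk14 was the upstream gene with a called difference of rhythm (0.56 ± 0.11, adjusted p = 0.0219, 1 of 22 against 1.44% of all genes), and this call ended without CON CT7 replicate 3, CON CT19 replicate 1, MUT CT7 replicate 3 or MUT CT19 replicate 1 or 3 (adjusted p from 0.0522 to 0.0651) and without the 3 arrays of narrowest spread (adjusted p = 0.125).

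Several members differed more between mice of the same group than most genes did. The pooled SD within groups was 0.29 for Jun, at percentile 98.7 of all genes, and 0.23 for Dusp1, at percentile 97.2. Klf4 (0.18, percentile 92.9), Atf3 (0.18, percentile 92.5), Egr1 (0.16, percentile 88.9) and Nr4a1 (0.15, percentile 85.8) followed, against a median of 0.10 over all genes. Fos (percentile 56.1), Junb (48.8) and Fosb (32.6) lay near the middle. At CT13 the high values shared arrays: CON replicate 3 was the highest of its group for 6 of 9 members, CON replicate 2 the lowest for 8 of 9, and MUT replicate 2 the highest for 6 of 9. At the other times no array was the highest or the lowest of its group for more than 5 of 9. The same shares over all genes were not computed.

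The members varied together between mice to a limited degree. With values taken as deviations from the group mean over 24 arrays, the median r over the 36 member pairs was 0.18, against 0.017 over all gene pairs. Of the 36 pairs, 21 were positive (58.3%), near the share of all gene pairs (52.1%). Of the 36 pairs, 5 had r over 0.5 (13.9%, against 4.77% of all gene pairs). These were Klf4 with Dusp1 (0.61), Jun with Atf3 (0.60), Jun with Junb (0.55), Atf3 with Nr4a1 (0.54) and Jun with Klf4 (0.52). The lowest was Egr1 with Klf4 (-0.62). Fos and Fosb, both FOS family genes, had r of -0.12. All pairs share the same 24 arrays, and the values are descriptions.

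**Figure D4:**
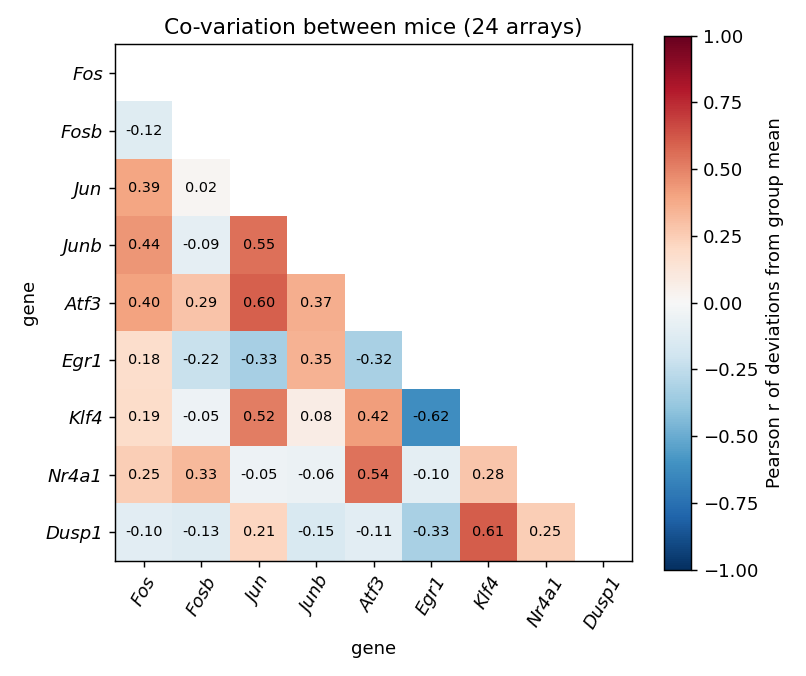
Pearson r between the 9 tested immediate early genes (both axes) over 24 arrays, with each value taken as the deviation from the mean of its own group of 3 mice. Red is positive and blue negative, with r printed in each cell. The highest is Klf4 with Dusp1 (0.61) and the lowest Egr1 with Klf4 (-0.62).

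The gene whose log2 values were most like the mean of the 9 z-scored members over the 24 arrays was Ccn1 (r = 0.81), a secreted matrix protein gene that is itself an early response gene and was on the list of relatives. Tnfrsf12a, the receptor of the cytokine TWEAK (0.77), Mcl1, a short-lived survival factor (0.77), and Fstl3, a binder of activin (0.75), came next. Stmn2 (0.74), Thbs3 (0.73), Gm5627 (0.70) and Pdlim4 (0.70) completed the 8. Among the members themselves, the r with this mean was highest for Atf3 (0.77) and lowest for Egr1 (-0.11). The 5 genes most like Fos alone were Dock6 (0.70), Psip1 (0.70), Spef1 (0.66), Cpeb1 (0.66) and Diaph2 (0.65), and none of them was among the 8. This second list rests on the low signal of Fos.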

How the data were processed

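Total RNA of eWAT was labelled with biotin and hybridised to 24 arrays. The deposited values are log2 signals per probe set, made by the authors with RMA in Affymetrix Expression Console, per the submitters' processing notes. Tool versions and the genome build were not given in the sources used here. Precision is limited by 3 arrays per group, 1 mouse each.

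The brightest probe set with 1 symbol was taken per gene, and genes whose mean signal lay under the 30th percentile (log2 7.42) were dropped. The 15526 genes left were fitted with a cell-means model over 8 groups (16 residual df) in limma 3.58.1 under R 4.3.3, with moderated tests, two-sided, and Benjamini-Hochberg adjustment over all of them. Contrasts were MUT minus CON at each time and in the mean of the 4 times, 24-h cosine and sine terms (F, 2 df) in MUT, in CON and between them (size: peak-to-trough of the vector difference), and any time difference (F, 3 df). Errors are SE of the model unless given as SD. The fits were tested on simulated data. Figures were drawn with matplotlib 3.10.9 in Python 3.11.15.

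The members and the lists were chosen with earlier results of these data known. All members are named, with up to 4 relatives and 3 upstream genes with the smallest p per comparison among those called, the 8 genes most like the member mean, and 5 most like Fos. The 5 other relatives with a rhythm in CON and the relatives called for genotype by time were named after their values were seen. Listed genes that were not tested had no probe set of their own here or lay below the filter, and some are not reported here.

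The alternatives tried were quantile normalization, a shift of arrays to one median, other filters and probe set rules, array weights, trended and robust variance, fits of 1 genotype or time alone, the title letters as a block, and each array left out. The genotype by time test, both marker covariates, the omission of 3 arrays and the motif TGACATCA were chosen after seeing the data.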

Additional observations from a re-analysis of the deposited data

Results flagged for a closer look

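Egr1 and Klf4 had differences between MUT and CON that pointed in opposite directions at different times, with every MUT mouse on 1 side of every CON mouse each time. For Egr1, MUT minus CON was -0.24 at CT1 and 0.24 at CT19, and for Klf4 it was 0.26 at CT1 and -0.51 at CT7. The change between the 2 times, tested with limma after the levels were seen, did not pass for either gene (0.48 ± 0.17, adjusted p = 0.201 for Egr1, and -0.77 ± 0.19, adjusted p = 0.233 for Klf4). Over all genes, the share of genes whose 3 MUT and 3 CON arrays do not overlap was 18.9% at CT1, 25.6% at CT7 and 27.3% at CT19.

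Among the relatives and upstream genes, Fosl2 (0.91) and Mapk14 (0.56) differed in their 24-h rhythm between MUT and CON. The test of whether the genotype difference varied over the 4 times called 5 of 37 relatives and 1 of 22 upstream genes, against 1.36% of all genes. These were Fosl2 (limma adjusted p = 0.000131), Mapk14 (adjusted p = 0.0372), Myc (limma adjusted p = 0.0242), Rhob (adjusted p = 0.0366), Ier3 (adjusted p = 0.0373) and Dusp4 (adjusted p = 0.0383). These genotype by time tests were not refitted under the alternatives. Single outlying mice were not tested.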

How the results depend on the processing

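The comparisons between genotypes, the time differences, the rhythms and the co-variation were refitted under up to 37 alternatives, 24 of which left out 1 array. The genotype by time tests, the spread within groups and the genes most like the members were computed once. How these depend on the processing was not tested. The letters of the titles as a replicate block changed no member's call (Jun rhythm in CON adjusted p = 0.0298, Klf4 at CT7 adjusted p = 0.0375), and among the named relatives and upstream genes it ended those of Btg2 in the daily mean, Braf at CT19 and the CON rhythms of Dusp4 and Zfp36l1 (limma adjusted p = 0.0562, 0.0543, 0.0566 and 0.0600). Mice with the same letter did not deviate together over all genes (median r = -0.016 over 84 pairs, against 0.0046 over 168 pairs with different letters). The labels do not say what the letters mean, so whether they pair mice is not known. The number of members called in the daily mean, 0, became 1 with quantile normalization (Fos), 2 with arrays shifted to the same median (Egr1 and Fos), 1 with array weights (Nr4a1), 1 without the 3 arrays of narrowest spread (Egr1), and 0 to 1 with 1 array left out. At CT7, 1 became 0 with arrays shifted to the same median, 2 with array weights (Jun and Klf4) and 0 to 1 with 1 array left out. At CT19, 0 became 1 with array weights. The 1 rhythm in CON became 2 with array weights or in the 12 CON arrays alone, 0 with either marker covariate, and 1 to 2 with 1 array left out. The 1 time difference in CON became 2 with quantile normalization, with array weights or without the 3 arrays (Egr1 and Klf4), 0 with trended and robust variance or either covariate, and 0 to 1 with 1 array left out, where Klf4 was the call without CON CT7 replicate 2 or CON CT13 replicate 3. The difference of rhythm, 0, became 1 with array weights or without the 3 arrays (Egr1 in both). With the filter at the 60th percentile, 7 of the 10 member pairs left were positive, and the share over all gene pairs under that filter was not computed. Calls over all 15526 genes moved too. With quantile normalization they numbered 1953 in the daily mean, against 3365 in the fit reported, 11 at CT1 (6 higher and 5 lower in MUT) against 7 (5 and 2), and 346 for the difference of rhythm against 223. With array weights they numbered 58 at CT1 against 7, 2727 at CT7 against 629, 13 at CT13 against 50 and 1642 at CT19 against 425. Array weights also gave 555 rhythms in MUT against 54, 4194 in CON against 2650, 737 differences of rhythm against 223, and 484 time differences in MUT against 66 and 3754 in CON against 2057. The replicate block gave 3 at CT1. With arrays shifted to the same median, 4349 genes were called in the daily mean (3812 higher and 537 lower in MUT, against 1902 and 1463), 835 at CT7 (750 and 85, against 462 and 167), 236 at CT13 (220 and 16, against 36 and 14) and 662 at CT19 (563 and 99, against 299 and 126). With the filter at the 60th percentile, 2093 were called in the daily mean (1685 and 408). Without the 3 arrays of narrowest spread, 296 were called in the daily mean, 49 at CT7 (18 higher and 31 lower), 0 at CT13 (limma, 1367 at an unadjusted p under 0.05), 1011 for rhythms and 744 for time differences in CON. With the mesothelium covariate, 535 were called in the daily mean, 333 at CT7, 210 at CT19, 17 and 1503 for rhythms in MUT and CON, 39 and 1027 for time differences, and 435 for the difference of rhythm. With the macrophage covariate, 28 were called at CT1 and at CT13, 22 and 1055 for rhythms, and 38 and 687 for time differences. Fits of 1 time alone called 30 at CT1, 1 at CT13 and 187 at CT19. Other filters, probe set rules and variances gave 3 to 13 at CT1 and 29 at CT13. With 1 array left out, the calls ran from 2146 to 4131 in the daily mean, 0 to 18 at CT1, 191 to 732 at CT7, 4 to 196 at CT13, 36 to 623 at CT19, 26 to 141 and 1843 to 2892 for rhythms in MUT and CON, 34 to 140 and 1377 to 2245 for time differences, and 119 to 371 for the difference of rhythm.

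The remaining changes of sign concern differences that were not called, and the cause was not tested. With quantile normalization MUT minus CON turned to -0.017 for Dusp1 and -0.0087 for Junb in the daily mean, -0.0068 for Nr4a1 at CT1, -0.0026 for Junb at CT13, and -0.040 for Jun and -0.012 for Junb at CT19. With arrays shifted to the same median it turned to 0.0033 for Junb at CT1, 0.015 for Dusp1 at CT7, 0.0091 for Atf3 at CT13 and 0.024 for Dusp1 at CT19. With array weights it turned to 0.0037 for Junb at CT1, -0.092 for Fos at CT7 and -0.0026 for Junb at CT19, and without the 3 arrays to -0.028 for Dusp1 in the daily mean. With the mesothelium covariate it turned to -0.085 for Atf3, -0.016 for Jun and -0.043 for Junb in the daily mean, 0.051 for Dusp1, -0.031 for Fos and -0.056 for Junb at CT7, -0.015 for Junb at CT13, and 0.025 for Dusp1, -0.14 for Jun and -0.038 for Junb at CT19. With the macrophage covariate Junb turned to -0.0094 in the daily mean and -0.031 at CT13. With 1 array left out, Junb ran from -0.015 to 0.026 in the daily mean, -0.055 to 0.036 at CT1, -0.018 to 0.058 at CT7, -0.065 to 0.097 at CT13 and -0.036 to 0.083 at CT19. Dusp1 ran from -0.0075 to 0.086, -0.0049 to 0.18, -0.19 to 0.16, -0.072 to 0.24 and -0.11 to 0.054 in the same order. Atf3 ran from -0.030 to 0.056 in the daily mean and -0.24 to 0.078 at CT13, Jun from -0.46 to 0.055 at CT13 and -0.12 to 0.18 at CT19, Fos from -0.029 to 0.096 at CT7 and Nr4a1 from -0.11 to 0.18 at CT1.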
